A study of Mus musculus with 6 samples.

Results

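Pcp4, Pcp4l1, Calm2, Calm3, Camk2d and Camk2g are 6 of the 54418 genes counted in RNA-seq libraries of mammary cells from Glis2+/+ and Glis2-/- mice. They encode 2 small relatives that carry an IQ motif, calmodulin, from 2 genes, and 2 subunits of calcium/calmodulin-dependent protein kinase II (CaMKII). Pcp4 was chosen by its difference between the genotypes in these same libraries, among the genes that the study displayed for it, and the other 5 genes were added as its family and partners with results of the comparison known. The values of the 6 genes by genotype are therefore given as a description and were not tested. The cells came from 3 Glis2+/+ (WT) and 3 Glis2-/- (KO) C57BL/6 females aged 4 weeks, with 1 library per mouse. The KO mice carry the mutation in the germ line, so every cell of the animal lacks a normal Glis2 gene, a zinc finger transcription factor, and the mammary cells were not the only ones affected. The glands were dissociated and the cells were sorted after staining for viability, the lineage antigens TER-119, CD31 and CD45, and the epithelial antigens CD24 and CD49f. The source was labelled mammary gland, and the study described the cells as mammary epithelial.

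Calmodulin is the general calcium sensor of animal cells. On binding calcium it wraps around target helices and switches on kinases, the phosphatase calcineurin, calcium pumps and many other enzymes. PCP4, also called PEP-19 and best known from Purkinje neurons, has no enzyme activity of its own. It binds calmodulin through its IQ motif and changes how fast calmodulin gains and loses calcium. CaMKII is a large multisubunit kinase, for which the gamma and delta genes are the forms used outside the nervous system. In the mammary gland the calcium-calmodulin route is familiar from the contractile myoepithelial cells of the basal layer, where oxytocin raises calcium and calmodulin activates myosin light chain kinase.

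The libraries held between 24996524 and 31393917 estimated counts, and between 20743 and 21925 genes reached 10 counts. Across genes each library had a mean correlation of 0.916 to 0.925 with the other 5. The second WT library was low in markers of other cell types, with summed fibroblast markers at 2379 CPM against 7553 and 7868 CPM and endothelial markers at 213 CPM against 915 and 699 CPM in the other WT libraries, and the second KO library was the lowest of its genotype in both (2676 and 315 CPM). Levels are given as CPM, the counts scaled to a fixed library size after edgeR's TMM normalization, or as TPM, in which counts are also divided by transcript length, where genes are compared per length. Gm23935, a short noncoding RNA gene, held 83.0 to 85.7% of all TPM, so that the TPM of every other gene is small in absolute terms. Glis2 (chromosome 16, 4594713 to 4624924, GRCm38) stood at 21.7, 23.2 and 19.6 CPM in WT and at 10.1, 17.0 and 16.3 CPM in KO libraries, so in CPM its transcript was lower in each KO library than in each WT library and was not absent. In TPM it stood at 2.82, 4.19 and 2.08 in WT and at 3.17, 2.75 and 2.75 in KO libraries and overlapped. Which part of the gene the mutation removes is not given in the sources used here, so these values are no check of the genotype. Markers of the basal and luminal epithelium were abundant, with Krt14 at 327 to 631 CPM and Krt8 at 1238 to 1950 CPM. Pecam1, which encodes CD31, was also present at 44.6 to 198 CPM, and Ptprc, which encodes CD45, at 7.98 to 38.7 CPM.

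Pcp4 (ENSMUSG00000090223, chromosome 16, 96467606 to 96525793, plus strand, GRCm38) was the gene of the 6 whose libraries separated by genotype in CPM. It held 129, 97 and 118 counts in WT and 419, 253 and 406 counts in KO libraries. This corresponded to 4.18, 3.40 and 4.53 CPM in WT and to 16.7, 8.45 and 13.0 CPM in KO libraries. Each KO library lay above each WT library, and the lowest KO library was the second KO mouse. The mean was 4.03 ± 0.581 CPM (SD, n = 3) in WT and 12.7 ± 4.15 CPM (SD, n = 3) in KO cells, a ratio of 3.15, and the fit across all genes gave a log2 fold change of 1.66 ± 0.30 (standard error). Without the second WT library the log2 fold change was 1.55. Of the 21236 genes tested, 257 (1.21%) had a larger log2 fold change, 6.23% had all KO libraries above all WT libraries, and 5.5% had all of them below. The quasi-likelihood test of edgeR called 0 genes (0%) with the thresholds of the study, an adjusted p no higher than 0.05 and a log2 fold change of 0.58 or more in size. At an unadjusted p under 0.05 there were 1130 genes (5.32%), of which 636 were higher (2.99%) and 494 lower in KO (2.33%). DESeq2 with apeglm shrinkage, the tool of the study, called 45 of 27248 genes (0.165%), 36 of them higher in KO (0.132%), and Pcp4 was one of the 36. Since the same contrast chose Pcp4, these counts only place it among the other genes. Pcp4 lies on the chromosome of Glis2, with 91.8 Mb between the end of Glis2 and its own start.

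The coding sequence of Pcp4 is short, and it is shown with that of Pcp4l1 because the IQ motif is what the pair has in common. Both were read from the GENCODE M21 transcripts (GRCm38), and the capitals mark the codons of the motif's core, an isoleucine and a glutamine followed by 3 residues and an arginine.
Pcp4: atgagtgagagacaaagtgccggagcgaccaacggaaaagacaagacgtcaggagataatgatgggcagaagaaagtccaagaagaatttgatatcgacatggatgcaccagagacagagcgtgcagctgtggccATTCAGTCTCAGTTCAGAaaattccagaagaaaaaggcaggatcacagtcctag
Pcp4l1: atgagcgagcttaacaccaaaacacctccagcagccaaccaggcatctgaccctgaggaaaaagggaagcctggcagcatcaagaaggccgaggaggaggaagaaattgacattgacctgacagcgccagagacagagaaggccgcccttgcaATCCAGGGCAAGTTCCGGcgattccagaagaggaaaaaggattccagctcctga
The Pcp4 sequence has 189 bases for 62 residues with the core at bases 136 to 153, and the Pcp4l1 sequence has 207 bases for 68 residues with the core at bases 154 to 171. The encoded residues are identical at 28 of 68 aligned positions (41.2%), and the longest run of bases that both coding sequences share is 12. No stretch of 40 bases, the read length, occurs in transcripts of both genes, so reads of one do not match the other. Of the 1100 windows of 40 bases in Pcp4 transcripts, 206 (18.7%) also occur in another gene, in each case the Igsf5 gene that overlaps Pcp4 on its strand (ENSMUSG00000117081). That gene had 0 counts in the 3 WT libraries and in the first KO library, and 14 and 4 counts in the other KO libraries, few beside the 253 to 419 counts of Pcp4.

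**Figure D1:**
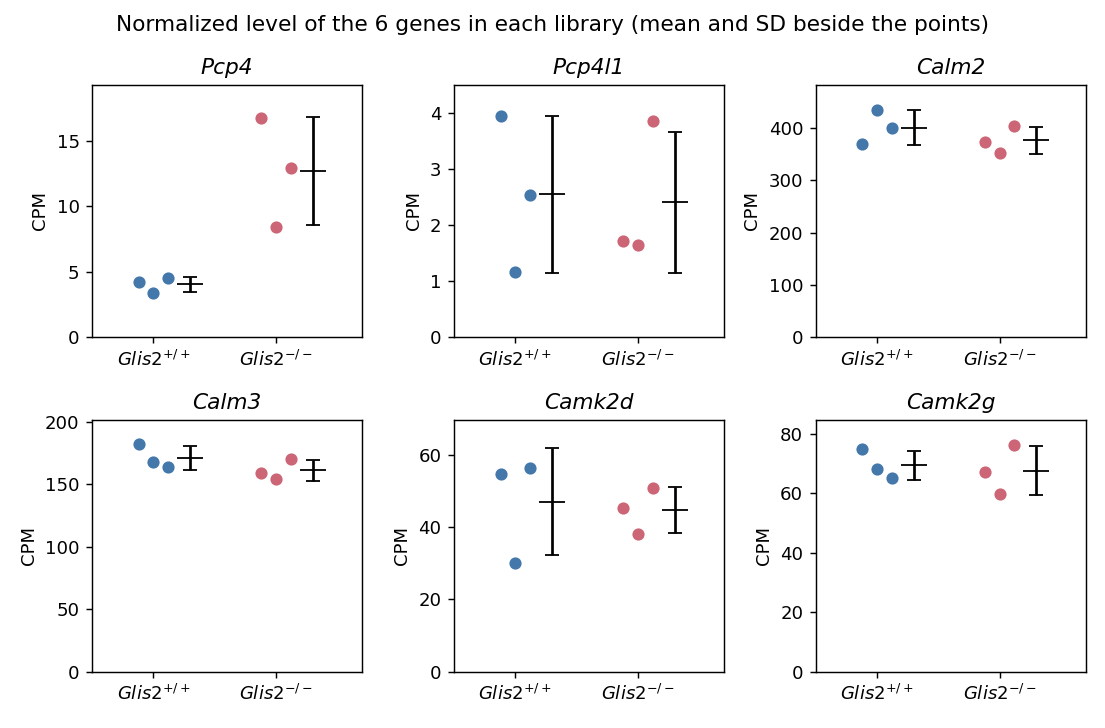
TMM-scaled level in CPM (vertical axes, from 0, one scale per panel) of the 6 genes in each WT (blue) and KO (red) library, with the genotype mean and SD in black beside the points. The KO points of Pcp4 lie between 8.45 and 16.7 CPM, above the WT points at 3.40 to 4.53 CPM, whereas the points of the other 5 genes overlap between genotypes.

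Pcp4l1 (ENSMUSG00000038370, chromosome 1, 171173262 to 171196268, minus strand) did not separate by genotype. It was the least abundant of the 6 genes, with 122, 33 and 66 counts in WT and 43, 49 and 121 counts in KO libraries. Its level was 3.95, 1.16 and 2.53 CPM in WT and 1.72, 1.64 and 3.87 CPM in KO libraries. The first WT mouse and the third KO mouse were both high and the second WT mouse was lowest, so the ranges coincided. The log2 fold change was -0.08 with a standard error of 0.56, which leaves room for a change of either sign. In TPM, Pcp4 exceeded Pcp4l1 by 3.26-, 9.13- and 5.53-fold in the WT mice and by 30.2-, 15.9- and 10.3-fold in the KO mice.

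The summed level of basal layer markers was also higher in the KO libraries, while most of the single markers overlapped between genotypes. Summed over 10 basal and myoepithelial markers, all of them detected, the level was 4683 to 6011 CPM in WT and 6398 to 7696 CPM in KO libraries, with no overlap. Of the 10 markers, 3 did not overlap between genotypes, each higher in KO, beside 6.23% of all genes tested that lay higher in each KO library. The other 7, among them the keratin genes Krt14, Krt5 and Krt17, overlapped, and edgeR called 0 of the 10. Myh11 and Acta2, which are also in the pericyte and vascular smooth muscle list, made up most of the sum. The markers without overlap were Cnn1 and Tagln, which encode the smooth muscle proteins calponin and transgelin, and Oxtr, which encodes the oxytocin receptor. Relative to 1000 CPM of these markers, Pcp4 stood at 0.695, 0.613 and 0.967 CPM in WT and at 2.51, 1.32 and 1.69 CPM in KO libraries, a log2 difference of 1.25. This ratio is built from the Pcp4 values that chose the gene and is a description. In bulk RNA, more cells of a type and more RNA per cell cannot be told apart.

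Lists of other cell types were summed in the same way. The 10 immune markers summed to 22.7 to 44.0 CPM in WT and to 41.5 to 81.7 CPM in KO libraries, with Ptprc and the B cell gene Cd79a higher in each KO library than in each WT library. The 10 pericyte and vascular smooth muscle markers, of which Myh11, Acta2 and Cnn1 are also in the basal list, summed to 3448 to 4416 CPM in WT and to 4115 to 5120 CPM in KO libraries. Luminal (4074 to 6872 against 4044 to 7229 CPM), fibroblast (2379 to 7868 against 2676 to 6052 CPM), endothelial (213 to 915 against 315 to 936 CPM) and adipocyte markers (55.8 to 319 against 99.3 to 270 CPM) overlapped. So did skeletal muscle (22.9 to 73.9 against 24.5 to 31.3 CPM), Schwann cell (623 to 816 against 623 to 725 CPM) and neuron markers (98.2 to 111 against 104 to 129 CPM). Within these lists, Adipoq and the pericyte gene Notch3 were lower in each KO library than in each WT library. The part of these cells and of the basal cells in the level of Pcp4 was not tested.

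**Figure D2:**
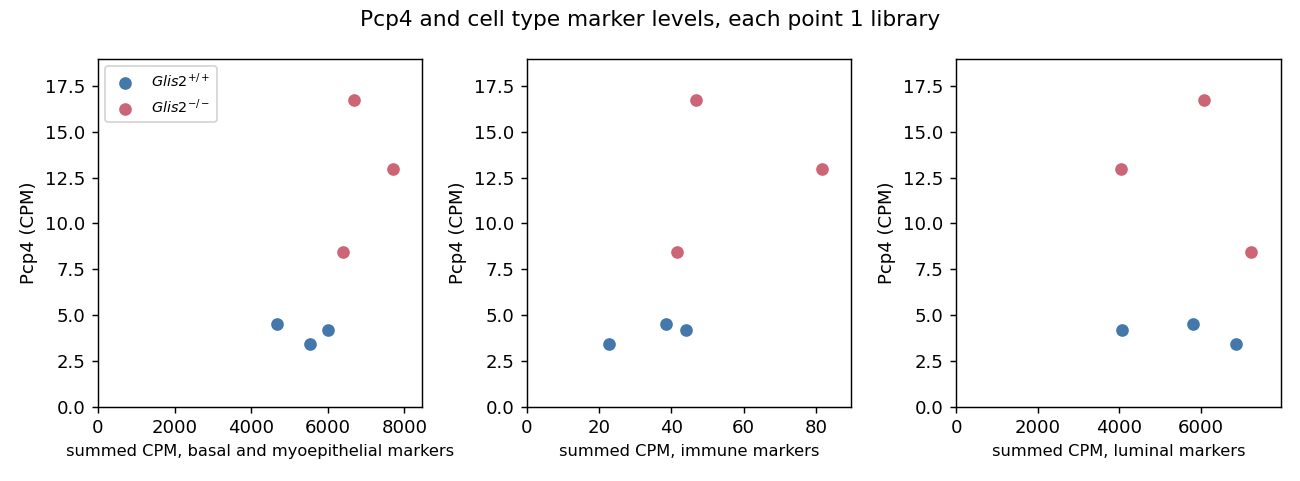
Level of Pcp4 (vertical axis, CPM) against the summed CPM of the basal and myoepithelial, immune and luminal markers (horizontal axes), 1 point per library, WT in blue and KO in red. The KO libraries lie to the right of the WT libraries for the basal markers (6398 to 7696 against 4683 to 6011 CPM) and overlap with them for the immune and luminal markers, and they lie higher in Pcp4 in each panel.

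The genes whose level followed that of Pcp4 most closely over the 6 libraries, among 12146 genes tested with a mean of at least 5 CPM, were Fam118a (Pearson r = 0.985 in log2 CPM), Dhrs3 (r = 0.982), Bod1 (r = 0.982), Cd63 (r = 0.976) and Cnn1 (r = 0.976). The values describe likeness over 6 libraries that include the genotype difference, and were not tested. Cnn1 was at 125 to 135 CPM in WT and 165 to 227 CPM in KO libraries, and Fam118a at 36.3 to 36.7 CPM in WT and 44.2 to 57.8 CPM in KO libraries. Dhrs3, a retinal reductase gene, was at 38.3 to 41.7 against 45.7 to 56.2 CPM. Bod1 and the tetraspanin gene Cd63 varied far less, with log2 fold changes of 0.07 and 0.06, so a high r here does not reflect the size of the change.

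Calm2 and Calm3, which encode calmodulin, the partner of PCP4, overlapped between the genotypes in CPM. Calm2 (ENSMUSG00000036438, chromosome 17, 87433412 to 87446935, minus strand) was at 369, 435 and 400 CPM in WT and at 374, 352 and 404 CPM in KO libraries. Calm3 (ENSMUSG00000019370, chromosome 7, 16915379 to 16924114, minus strand) was at 182, 168 and 164 CPM in WT and at 159, 154 and 170 CPM in KO libraries. The log2 fold changes were -0.09 (standard error 0.098) for Calm2 and -0.09 (standard error 0.094) for Calm3. In TPM Calm2 still overlapped, at 205, 277 and 267 in WT and 225, 179 and 210 in KO libraries. Calm3 did not overlap in TPM, at 27.3, 30.4 and 33.6 in WT and 27.0, 21.7 and 21.3 in KO libraries, with the first library of each genotype nearly equal. Summed over both genes, the level was 572 ± 27.0 CPM (SD, n = 3) in WT and 538 ± 34.5 CPM (SD, n = 3) in KO cells.

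Calm2 and Calm3 code for the same protein, and the start of their coding sequences is shown because it lets their reads be told apart. The first 120 bases of each are given (GENCODE M21, GRCm38), with capitals at the positions where the genes differ.
Calm2: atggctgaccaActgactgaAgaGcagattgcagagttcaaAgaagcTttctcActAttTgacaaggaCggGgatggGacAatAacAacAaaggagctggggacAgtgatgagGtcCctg
Calm3: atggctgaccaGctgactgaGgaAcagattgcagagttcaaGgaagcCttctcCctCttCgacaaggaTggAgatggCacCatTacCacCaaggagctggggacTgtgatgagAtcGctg
Of these 120 positions, 18 differ. Over the whole coding sequence of 450 bases 78 positions differ, 74 of them (94.9%) at the third base of a codon, and the 149 encoded residues are identical. The longest run of bases that both coding sequences share is 17, shorter than a read of 40 bases. Reads of Calm2 and Calm3 are thus distinguishable, but some match copies elsewhere in the genome. For Calm2, 13.6% of the 40-base windows occur in Gm7308, Gm15720 or Gm14480, which held at most 85 counts in a library against 9350 to 12640 for Calm2. For Calm3, 3.67% of the windows occur in Gm5881, which held 4 to 26 counts against 3985 to 5616 for Calm3.

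Calm2 was the more abundant of the pair in each library. Its share of the TPM summed over Calm2 and Calm3 was 88.2, 90.1 and 88.8% in WT and 89.3, 89.2 and 90.8% in KO libraries, on average 89.1 ± 0.965% (SD, n = 3) and 89.7 ± 0.915% (SD, n = 3). The shares overlapped between the genotypes and varied little among the mice. A share within a library does not depend on the scaling between libraries, but it does depend on the length given to each gene. With CPM per kilobase of annotated exon the mean share of Calm2 was 79.4%, again the larger of the pair.

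The proportion of Pcp4 mRNA to the mRNA of Calm2 and Calm3 did not overlap between the genotypes. Per 100 TPM summed over Calm2 and Calm3, Pcp4 stood at 0.846, 0.565 and 0.827 TPM in WT and at 3.32, 1.77 and 2.44 TPM in KO libraries. There were thus 118 to 177 TPM of Calm2 and Calm3 per TPM of Pcp4 in WT and 30.1 to 56.5 in KO libraries. Their mRNA remained far in excess of Pcp4 mRNA in all 6 mice. The proportion rests on the Pcp4 values that chose the gene, concerns mRNA and not protein, and was not tested.

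**Figure D3:**
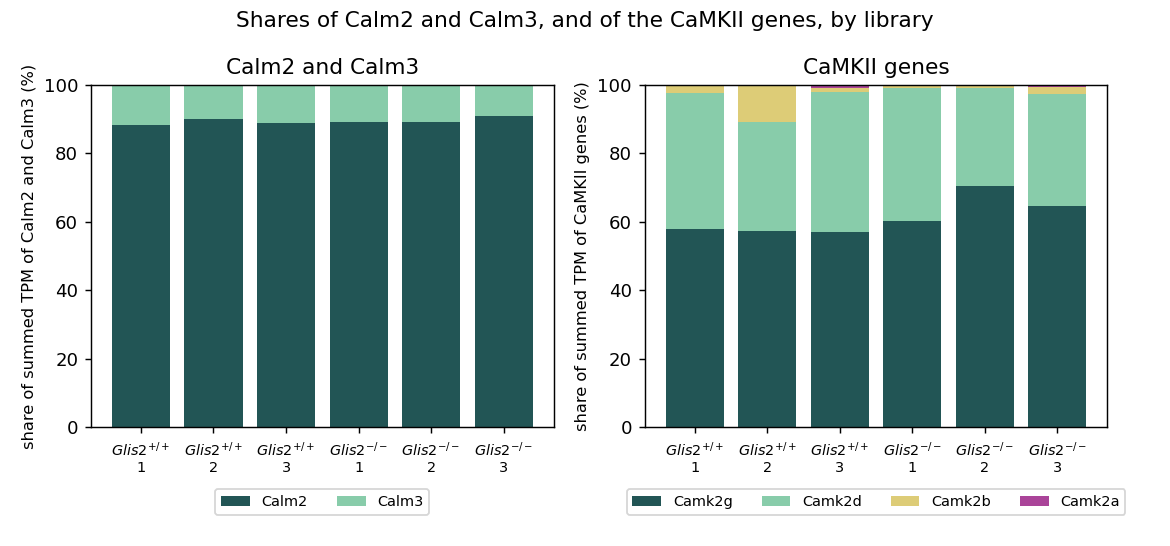
Share (vertical axes, percent) of Calm2 and Calm3 in their summed TPM (left) and of each CaMKII gene in the TPM summed over the CaMKII genes (right), 1 bar per library. Calm2 makes up 88.2 to 90.8% of the pair in the 6 libraries, and Camk2g 57.0 to 70.4% of CaMKII TPM.

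The CaMKII genes are the kinase targets of calmodulin among the 6. Camk2d, the delta subunit (ENSMUSG00000053819, chromosome 3, 126596302 to 126846326, plus strand), was at 54.7, 30.0 and 56.5 CPM in WT and at 45.4, 38.2 and 50.8 CPM in KO libraries. The WT values spanned those of the KO, with the second WT mouse lowest, and the log2 fold change was -0.07 (standard error 0.24), or -0.31 without that mouse. Camk2g, the gamma subunit (ENSMUSG00000021820, chromosome 14, 20734875 to 20794088, minus strand), was at 74.8, 68.1 and 65.2 CPM in WT and at 67.0, 59.6 and 76.2 CPM in KO libraries. Here, too, the ranges overlapped, with a log2 fold change of -0.04 (standard error 0.12). The aligned proteins are identical at 421 of 550 positions (76.5%), but the longest run of bases shared by the 2 coding sequences is 23, and no 40-base window of Camk2g occurs in another gene. Camk2d overlaps 8 other listed genes, 7 of them on its strand, and how reads were divided among them rests on the quantification.

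Camk2g and Camk2d together made up nearly all CaMKII mRNA. Of the TPM summed over the 4 CaMKII genes, Camk2g held 58.0, 57.2 and 57.0% in WT and 60.3, 70.4 and 64.7% in KO libraries, without overlap. Camk2d held 39.7, 32.0 and 40.9% in WT and 38.9, 28.7 and 32.6% in KO libraries, with overlap. In CPM the share of Camk2g was 51.6 to 66.7% in WT and 58.3 to 59.8% in KO libraries and overlapped, so the separation depends on the transcript lengths used for TPM. With CPM per kilobase of annotated exon the mean share was 81.6% for Camk2g and 15.5% for Camk2d, beside 61.3% and 35.5% in TPM, with Camk2g the larger in each unit. The neuronal subunits were minor, with Camk2b at 0.461 to 10.6% and Camk2a at 0.220 to 0.910% of the TPM. The highest share of Camk2b, 10.6%, came from the second WT library alone, and the next highest was 1.93%.

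Per transcript length the 6 genes spanned almost 3 orders of magnitude. Mean TPM over the 6 libraries was 227 for Calm2, 26.9 for Calm3, 9.41 for Camk2g, 5.58 for Camk2d, 3.95 for Pcp4 and 0.381 for Pcp4l1. Neighbours in this order were compared within each mouse, and the pairs without Pcp4 were tested, since their levels relative to each other had no part in choosing the genes. Calm2 exceeded Calm3 by 8.47-fold (geometric mean, range over mice 7.50 to 9.87), Calm3 exceeded Camk2g by 2.85-fold (1.92 to 4.19) and Camk2g exceeded Camk2d by 1.74-fold (1.39 to 2.45). Each of these 3 differences had the same sign in 6 of 6 mice, with an exact two-sided sign-flip permutation p of 0.03125, the smallest that 6 mice allow, and the same value (0.03125) after adjustment over the 3 pairs tested. With the p-value at its lowest possible, these tests rest on the common sign alone. The pairs were set by the same mean TPM that were then compared. The levels of Pcp4 entered its choice, so its pairs are given without a test. Pcp4 exceeded Pcp4l1 by 9.67-fold on average, with 3.26 to 9.13 in WT and 10.3 to 30.2 in KO mice. Camk2d exceeded Pcp4 in the 3 WT mice, and Pcp4 exceeded Camk2d in the 3 KO mice. With CPM divided by annotated exon length, Calm2 over Calm3 (3.86-fold) and Calm3 over Camk2g (6.43-fold) again had one sign in 6 of 6 mice (adjusted p = 0.0469 over 3 pairs, exact permutation test). In that unit Pcp4 came before Camk2d, 3.42-fold higher on average and higher in 6 of 6 mice, and Camk2d and Pcp4l1 were then neighbours, with Camk2d higher in 4 of 6 mice (exact permutation p = 0.125).

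**Figure D4:**
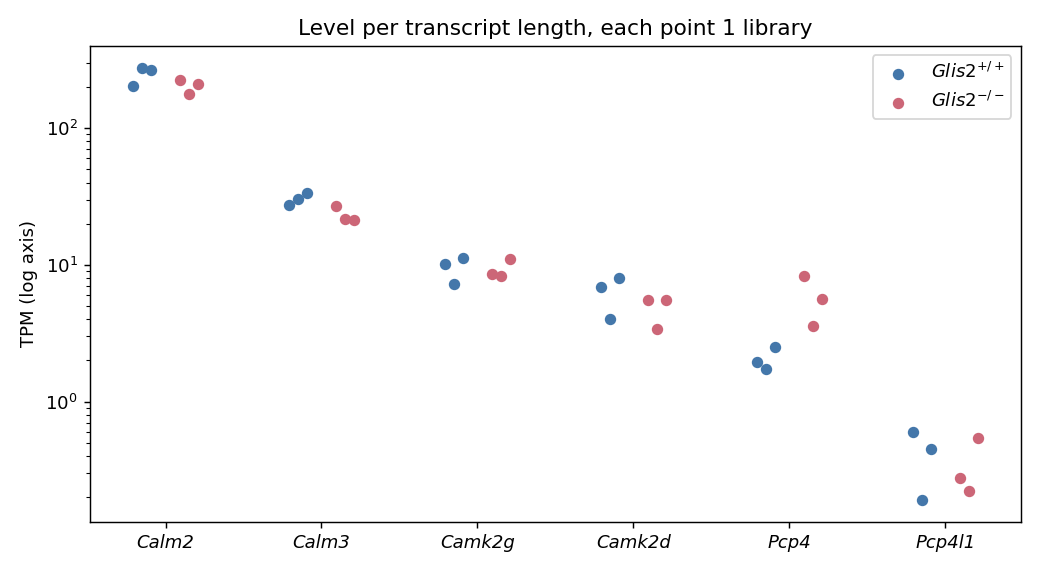
Level per transcript length (vertical axis, TPM, log scale) of the 6 genes in order of their mean, 1 point per library, WT in blue and KO in red. The points lie at 179 to 277 TPM for Calm2 and at 0.191 to 0.602 TPM for Pcp4l1, and those of Pcp4 (1.74 to 8.35 TPM) and Camk2d (3.38 to 8.04 TPM) overlap.

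Camk2d and Pcp4l1 varied among the 6 mice along with markers of other cell types, although no relation passed adjustment for the number examined. Camk2d took the same order over the 6 mice as the summed fibroblast markers, with the third WT mouse highest and the second WT mouse lowest in both (r = 0.967 in log2 CPM, rho = 1, exact permutation p = 0.00139 and 0.00278). It also ran with the adipocyte markers (r = 0.963, rho = 0.829, exact permutation p = 0.00556 and 0.0583) and the endothelial markers (r = 0.949, rho = 0.771, exact permutation p = 0.0111 and 0.103). Col3a1 and Col1a1, both collagen genes, contributed most to the fibroblast sum. Pcp4l1 took the order of the summed adipocyte markers (r = 0.944, rho = 1, exact permutation p = 0.00278 for both), a list in which Fabp4, a gene that capillary endothelium also expresses, held 46.3 of 55.8 CPM in the lowest library and 294 of 319 CPM in the highest, while Adipoq, which defines adipocytes, was at 0 to 4.07 CPM. Pcp4l1 also ran with the endothelial markers (r = 0.926, rho = 0.943, exact permutation p = 0.00972 and 0.0167) and against the luminal markers (r = -0.935, rho = -0.886, exact permutation p = 0.0111 and 0.0333). Without the 2 mice farthest from the median of the markers, r was 0.998 for Camk2d with fibroblast, 0.645 with adipocyte and 0.490 with endothelial markers, and 0.976 for Pcp4l1 with adipocyte markers, 0.992 with endothelial and -0.720 with luminal markers. They were computed over both genotypes and not within each. These relations were chosen after the values were seen, from 50 relations of 5 genes to 10 lists, and 0 of the 50 passed an adjusted p of 0.05, the smallest being 0.0694. With 6 mice the smallest possible exact permutation p is 0.00139 for r and 0.00278 for rho. Over 50 relations, a single relation at this limit could not pass on its own. Pcp4 was left out of them, as its libraries fall into separate genotypes.

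The other genes of the calmodulin pathway were examined in 8 lists of 78 genes, which include the 6. Of the 65 other genes that passed the filter on low counts, edgeR called 0 with the thresholds above and DESeq2 called 0. Of these 65, 32 had a log2 fold change above 0 and 33 below 0, with a median of -0.004 beside 0.01 over all genes tested. At an unadjusted p under 0.05 there were 9 of the 65 (5 higher and 4 lower in KO), beside 5.32% of all genes, and 10 genes did not overlap between genotypes, beside 11.7% of all genes. The values below are those of genes that did not pass the test, and each adjusted p is from edgeR. Overlap between genotypes was judged in CPM. In TPM Camk2b, Camkk1, Camk1, Ppp3ca, Eef2k and Marcksl1 overlapped, whereas Gap43, Pnck, Atp2b3 and Iqgap3 did not.

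Among the genes nearest to PCP4 and calmodulin in function, those of low level spread most. Gap43, the growth cone protein whose IQ motif binds calmodulin without calcium, was at 0.940, 0.945 and 2.88 CPM in WT and at 0.599, 0.134 and 0.543 CPM in KO libraries, opposite in direction to Pcp4 (log2 fold change -1.89, standard error 0.79, adjusted p = 0.906). Nrgn, which encodes the related neurogranin, overlapped (0.01, standard error 0.52). The calmodulin-like genes Calml3 and Calml4 stood at or below 2.56 CPM in each library and overlapped between genotypes, and Calm4 and Calm5 did not pass the filter, with at most 15 counts for Calm4 and 0 counts in each library for Calm5.

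Camk2b, the beta subunit of CaMKII, was at 2.85, 3.43 and 3.42 CPM in WT and at 1.04, 1.30 and 1.98 CPM in KO libraries, without overlap (log2 fold change -1.16, standard error 0.40, adjusted p = 0.906). Camk2a was at 0.559 to 1.73 CPM and overlapped. Of the 2 genes for inhibitor proteins of CaMKII, Camk2n1 was at 19.3, 36.7 and 27.1 CPM in WT and at 41.8, 46.4 and 28.7 CPM in KO libraries (0.49, standard error 0.26, adjusted p = 0.919). The other, Camk2n2, held only 5 to 40 counts per library (1.69, standard error 0.91, adjusted p = 0.920). The ranges of both inhibitor genes overlapped.

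The cascade of CaMKK, CaMKI and CaMKIV, in which calmodulin activates both an upstream kinase and the kinases it phosphorylates, had a median log2 fold change of 0.67 over 7 tested genes, 6 of them above 0. None of the 7 passed the test. Camkk1, an upstream kinase, was at 1.52, 2.14 and 3.22 CPM in WT and at 6.27, 3.81 and 7.16 CPM in KO libraries, without overlap (log2 fold change 1.33, standard error 0.40, adjusted p = 0.906). Camkk2, the more abundant upstream kinase, was at 18.2 to 27.9 CPM and overlapped (-0.07, standard error 0.19). Camk1 did not overlap at 26.7 to 28.5 CPM in WT against 30.0 to 37.0 CPM in KO libraries (0.29, standard error 0.13), and Camk4 was at 7.60 to 11.9 against 11.5 to 19.9 CPM (0.67, standard error 0.30), each with an adjusted p of 0.906. Pnck, a CaMKI-type kinase named after its values were seen, was the third gene of the list without overlap, at 4 to 45 counts in WT and 60 to 90 counts in KO libraries (1.47, standard error 0.73, adjusted p = 0.910). Over all genes tested 11.7% did not overlap.

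Calcineurin, the phosphatase that calmodulin activates, and its NFAT targets had a median of 0.03 over 11 tested genes. Ppp3ca, a catalytic subunit, was at 88.9 to 97.7 CPM in WT and at 106 to 116 CPM in KO libraries (log2 fold change 0.28, standard error 0.097, adjusted p = 0.906), a small separation at a high level. The regulatory subunit gene Ppp3r1 overlapped (0.19, standard error 0.13). Rcan2, which encodes a calcineurin inhibitor, was at 8.26 to 13.7 CPM in WT and 4.64 to 8.92 CPM in KO libraries (-0.76, standard error 0.31, adjusted p = 0.906). In the list of myosin light chain and death-associated kinases, with a median of 0.10 over 5 tested genes, Mylk, the contractile kinase of myoepithelial cells and one of the basal markers, was at 319 to 471 CPM in WT and 442 to 523 CPM in KO libraries (0.28, standard error 0.15, adjusted p = 0.919). The death-associated kinase genes Dapk1 and Dapk3 overlapped, at log2 fold changes of 0.10 and -0.10.

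Calmodulin-bound enzymes and pumps formed the largest list, with 18 tested genes, 13 of them below 0 and a median of -0.23. Its most abundant genes were Atp2b1, the widespread plasma membrane calcium pump (log2 fold change -0.12, standard error 0.12), and Itpkb, an inositol trisphosphate kinase gene (0.06, standard error 0.25). Atp2b3, another calcium pump, held 7, 1 and 0 counts in WT and 34, 16 and 51 counts in KO libraries, too few for a firm size (3.65, standard error 1.15, adjusted p = 0.906). Eef2k, the elongation factor 2 kinase that calmodulin activates, was at 54.4 to 64.9 CPM in WT and 71.1 to 81.9 CPM in KO libraries (0.29, standard error 0.12, adjusted p = 0.906).

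IQ scaffolds and calmodulin-binding substrates had a median of -0.004 over 15 tested genes. Sptan1, the spectrin alpha chain, and Cald1, caldesmon, were the most abundant and overlapped (log2 fold changes 0.04 and 0.12). Iqgap3, an IQ scaffold gene of proliferating cells, was at 41.7, 61.2 and 32.7 CPM in WT and at 27.3, 22.5 and 28.4 CPM in KO libraries (-0.79, standard error 0.23, adjusted p = 0.906). Marcksl1, a calmodulin-binding membrane protein gene, was at 173 to 212 CPM in WT and 214 to 248 CPM in KO libraries (0.28, standard error 0.11, adjusted p = 0.906).

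**Figure D5:**
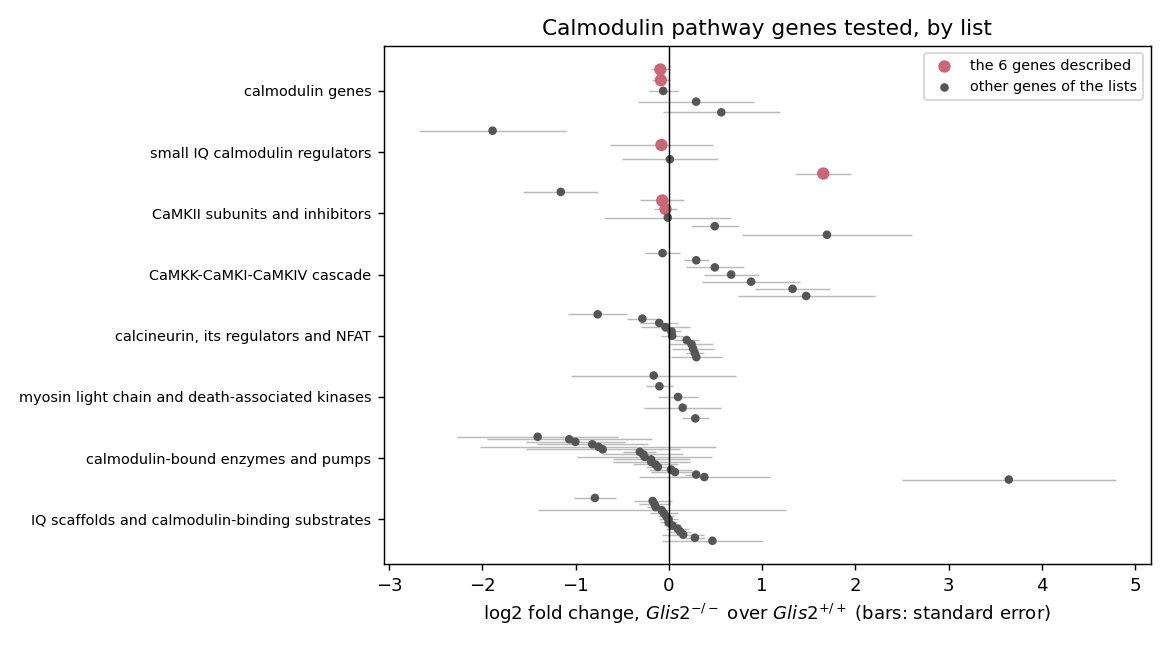
Log2 fold change of KO over WT (horizontal axis, bars show the standard error) for the 71 tested genes of the 8 calmodulin pathway lists, 1 point per gene, sorted within each list, with Pcp4, Pcp4l1, Calm2, Calm3, Camk2d and Camk2g in red. Pcp4, at 1.66, is the red point far to the right, the other 5 red points lie between -0.09 and -0.04, and the most distant points on both sides are genes of few counts with long bars, such as Atp2b3 at 3.65 and Gap43 at -1.89.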

How the data were processed

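The authors quantified paired 40-base reads of libraries made from 1 ng of total RNA, by a stranded kit that removes ribosomal cDNA, with Salmon 1.2.1 against mm10 transcripts with Ensembl annotation and summed them with tximport. The deposited estimated counts are whole numbers without normalization. The deposited log2 values are log2(TPM + 1), from which TPM were recovered. Of 54418 identifiers, 54166 matched GENCODE M21 (GRCm38), which gave symbols, positions and coding sequences (principal transcripts). Overlapping genes share reads by Salmon's estimate.

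Counts were tested with edgeR 4.0.16 in R 4.3.3 (filterByExpr, TMM, quasi-likelihood test, genotype only, Benjamini-Hochberg adjustment over 21236 genes). Alternatives used DESeq2 1.42.0 with apeglm 1.24.0 and limma 3.58.1. The functions were tested on simulated data. No pair of libraries agreed within sampling noise (chi-square per degree of freedom at least 15.1). The labels do not say whether mice of the same replicate number were paired. Deviations of same-numbered libraries from their genotype mean correlated at -0.016, 0.13 and 0.011. For replicates 2 and 3, but not 1, the same-numbered KO library was the closest match of the WT library. With 3 mice per genotype these values cannot decide whether the mice were paired.

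The 6 genes, the pathway and marker lists and the tests were chosen with earlier results of these data known. Named genes are the 6, Glis2, the calmodulin-like, small IQ regulator and CaMKII genes, from each other list the 2 most abundant and the 2 with the smallest unadjusted p, and the 5 most like Pcp4. Shares and sums of calmodulin mRNA were taken over Calm2 and Calm3, and some results that the rule selects are not reported here. The order of levels was planned over 5 neighbouring pairs and tested on those without Pcp4, a restriction made after the values were seen. Other experiments of the study were not analysed here.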

Additional observations from a re-analysis of the deposited data

How the results depend on the processing

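Over 13 alternatives to the test, scaling, filter, unit or set of mice, the log2 fold change of Pcp4 stayed above 0 in 13 of 13, between 1.11 and 1.87 (1.41 to 1.87 with each mouse left out in turn). The lowest value, 1.11, came from the log2(TPM + 1) values, where the offset compresses low levels. Relative to the basal markers it was 1.25, and summed with Igsf5 it was 1.64, both added after seeing the data. The number of genes called rose from 0 to 45 with DESeq2 and apeglm, to 40 in edgeR without a filter on low counts and to 1 in limma with log2(TPM + 0.1), and was 0 in the other 10. Pcp4 was among the calls of DESeq2 and of edgeR without a filter. The cause of these differences was not tested. Calmodulin pathway genes other than the 6 gave 0 calls in each alternative. With the replicate number as a block edgeR called 0 genes and Pcp4 was at 1.61.

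Calm2 and Calm3 stayed below 0 in 13 of 13. Calm2 was at -0.28 in both TPM fits, and Calm3 at -0.37 and -0.38 with offsets of 1 and 0.1, where the median of all genes also moved to -0.06 and -0.14, and at -5.74e-06 after apeglm shrinkage. Pcp4l1 (-0.62 to 0.37), Camk2d (-0.37 to 0.08) and Camk2g (-0.15 to 0.04) took both signs. For the order per length, 3 of the 3 pairs without Pcp4 passed, and 2 of 3 did with CPM per exon length. The pairs differed between the units. With exon length Camk2g and Camk2d were not neighbours and were not tested, and the pair that did not pass was Camk2d and Pcp4l1. With 5 mice 0 pairs could pass, as the smallest p of the sign-flip test is then 0.0625. With CPM per exon length the shares were 79.4% for Calm2, 20.6% for Calm3, 15.5% for Camk2d and 81.6% for Camk2g. The depth limits Pcp4l1 (33 to 122 counts) and the rarest pathway genes most.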
